A study of Mus musculus with 10 samples.

Results

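The genes described here are the interferon response genes and the interferon regulatory factors (IRFs) of mouse brown adipose tissue, the fat that burns fuel for heat. They were taken from the count table by symbol: the interferon receptors, signal transducers and IRFs, and the families that carry an interferon name or are known interferon targets. The symbols matched 81 of the 20295 genes in the table, and 63 of the 81 had enough reads to be tested. The matching was by name alone. It therefore takes in Isg20l2, a nucleolar relative of an interferon target, and Ifitm5, which is better known from bone.

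Interscapular brown fat came from male C57BL/6JBomTac mice aged 8 weeks, each housed alone, with poly-A RNA sequenced as 1 library per mouse. All 10 libraries are marked WT, for wild type. Controls were 5 mice at 22 °C, and 5 further mice spent 3 days at 4 °C. Room temperature is itself a mild cold load for a mouse, so the controls are not a state without heat production. The comparison asks how transcripts of this depot differ between these temperatures. Values are normalised read counts as CPM, with library sizes scaled by edgeR's TMM factors, and a difference is the log2 of cold over control, given with its standard error (SE). A gene is said to have risen or fallen where its p in edgeR's quasi-likelihood test, adjusted over the 11229 genes tested, was under 0.05. Mice were separate animals, so the spread between libraries includes that between mice.

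Interferons are secreted proteins that cells release on sensing viral or misplaced nucleic acids. Type I interferons bind the receptor pair Ifnar1 and Ifnar2, and interferon gamma binds Ifngr1 and Ifngr2. Receptor-bound kinases then activate signal transducers such as Stat2. A complex of Stat2 with Irf9 binds interferon-stimulated response elements (ISREs) in promoters, while the interferon gamma receptor acts through gamma-activated sites. The targets include sensors of RNA and DNA, enzymes that block viral replication, and GTPases that attack intracellular microbes. In fat the pathway acts in adipocytes as well as in resident macrophages.

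Library totals were 4446163 to 6923932 counts, and cold replicate 5, at 5676963, was within that range. Control replicate 2 and cold replicate 5 stood apart from their groups over the whole transcriptome. On the second principal component of log2 CPM, control replicate 2 lay at -36.5 against 2.3 to 23.7 in the other controls. Cold replicate 5 lay at -23.5 there against -0.9 to 6 in the other cold libraries. Ucp1, the uncoupling protein of brown fat and a marker of tissue and treatment, was at 18440 CPM in cold replicate 5. That is within the 17182 to 19500 CPM of the other 4 cold libraries and above the 8077 to 9956 CPM of the controls. The brown adipocyte markers Adipoq, Cidea, Fabp4, Lipe, Plin1 and Ppargc1a lay within the range of the controls in that library. On the first component, which separates the groups, cold replicate 5 lay at 6.7, where the rest of the cold group spanned 24.2 to 31.7 and controls -30.6 to -18.1. Elovl3, a fatty acid elongase that cold induces in brown fat, was at 839 CPM in cold replicate 5, lower than the 1130 to 1650 CPM of cold replicates 1 to 4 and above every control (111 to 246 CPM). Results below are given with cold replicate 5, and for the genes named also without it where the call changes.

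The upstream sequences of called members are shown because the ISRE is the element through which the pathway is known to reach these genes. RefSeq's promoter table (build GRCm38.p6, not the build of the counts) held an entry for 56 of the 81 members. The 250 bases before each start were searched on both strands for the ISRE, taken as GAAA, any 2 bases and a further GAAA, and for the gamma-activated site, taken as TTC, any 3 bases and GAA. An ISRE match was found in 21 of the 56 members (37.5%) and in 3.46% of all 27025 genes in the promoter table. A gamma-activated match was found in 14 of the 56 (25%) and in 8.13% of all genes. Among members with an entry, 5 of the 15 that rose held an ISRE match (33.3%), as did 14 of the 30 tested members that did not pass the test (46.7%) and 2 of the 11 not tested (18.2%). The 56 members had 66 entries in all. For 50 of these the bases after the start lay in a transcript of the gene, and for 0 only when reversed. The remaining entries had no such match, so their starts are less certain. An ISRE or gamma-activated match is a string of letters and no measured binding site, and the absence of a match speaks only of this window.

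The 4 members that rose with the smallest p among those with an ISRE match are printed 5′ to 3′ along the gene's strand, with the matches in capitals. Rsad2 (chr12:26456453-26456702, minus strand) held 1 match, whose first base lay 120 bases before the start. Ifit1 (chr19:34640639-34640888, plus strand) held 2, which began 104 and 85 bases before the start. Gbp5 (chr3:142496684-142496933, plus strand) held 1, at 165 bases, besides 2 gamma-activated matches. Ifit3 (chr19:34583279-34583528, plus strand) held 2, at 156 and 122 bases.
Rsad2: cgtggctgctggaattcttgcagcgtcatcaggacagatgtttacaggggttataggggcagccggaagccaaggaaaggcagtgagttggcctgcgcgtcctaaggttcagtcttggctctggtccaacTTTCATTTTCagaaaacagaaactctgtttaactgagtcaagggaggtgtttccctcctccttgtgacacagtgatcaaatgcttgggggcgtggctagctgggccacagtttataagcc
Ifit1: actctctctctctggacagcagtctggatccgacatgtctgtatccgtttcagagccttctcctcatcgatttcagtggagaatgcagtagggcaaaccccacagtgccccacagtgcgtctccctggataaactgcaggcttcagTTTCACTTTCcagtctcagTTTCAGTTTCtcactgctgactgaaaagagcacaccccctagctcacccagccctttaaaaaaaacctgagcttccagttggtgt
Gbp5: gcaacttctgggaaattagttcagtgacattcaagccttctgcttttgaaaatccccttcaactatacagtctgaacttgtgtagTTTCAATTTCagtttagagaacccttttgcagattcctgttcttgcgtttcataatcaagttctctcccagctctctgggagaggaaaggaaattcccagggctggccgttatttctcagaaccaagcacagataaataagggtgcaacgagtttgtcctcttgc
Ifit3: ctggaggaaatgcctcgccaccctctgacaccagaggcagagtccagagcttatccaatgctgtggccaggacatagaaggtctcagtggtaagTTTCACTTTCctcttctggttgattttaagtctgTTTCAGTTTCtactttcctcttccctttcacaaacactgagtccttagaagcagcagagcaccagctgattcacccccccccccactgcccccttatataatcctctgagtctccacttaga
Isg15, which is not printed, held 3 matches that overlap one another.

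For comparison, Ifi30 (chr8:70766664-70766913, minus strand) and Oasl1 (chr5:114922990-114923239, plus strand) also rose, and neither held an ISRE or a gamma-activated match in its window.
Ifi30: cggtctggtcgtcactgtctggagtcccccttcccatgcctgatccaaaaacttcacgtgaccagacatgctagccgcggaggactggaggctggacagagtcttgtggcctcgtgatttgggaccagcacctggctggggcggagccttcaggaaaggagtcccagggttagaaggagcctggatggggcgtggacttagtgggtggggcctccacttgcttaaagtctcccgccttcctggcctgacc
Oasl1: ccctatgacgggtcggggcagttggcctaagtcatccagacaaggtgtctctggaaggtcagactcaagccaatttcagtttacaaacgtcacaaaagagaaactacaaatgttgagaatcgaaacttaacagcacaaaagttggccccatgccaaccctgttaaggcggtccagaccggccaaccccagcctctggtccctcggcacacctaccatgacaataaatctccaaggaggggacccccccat

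Interferon targets were higher in 4 of the 5 cold mice, and in cold replicate 5 most of them were at or under the control level. With all 10 libraries, 21 of the 63 tested members rose and 0 fell, where 10.2% of all genes tested rose and 9.14% fell. At an unadjusted p under 0.05, 38 members were higher and 3 lower, where 17.3% of all genes were higher. The median log2 fold change over the tested members was 0.65, against -0.02 over all genes tested. Apart from the receptor subunit Ifnar2 and the factors Irf5 and Irf7, those that rose belonged to the sensor and effector classes. For all 21, cold replicates 1 to 4 lay above every control; for 18 of them cold replicate 5 did not. Of the 63 tested members, 7 reached the filter's 10 counts in fewer than 5 control libraries and 0 in no control library. Among these 7, Oasl1 and Irf5 rose but passed the filter mainly through the cold libraries, so their calls are no support. With limma-voom, another test of the same counts, 7 members passed: Ifnar2, Dhx58, Gbp6, Gbp10, Ifi47, Ifi30 and Rsad2. That is a share near the one over all genes, of which 10% were higher and 8.98% lower by limma-voom. With DESeq2 26 rose and 0 fell, where 11.6% and 10.2% of all genes did.

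**Figure D1:**
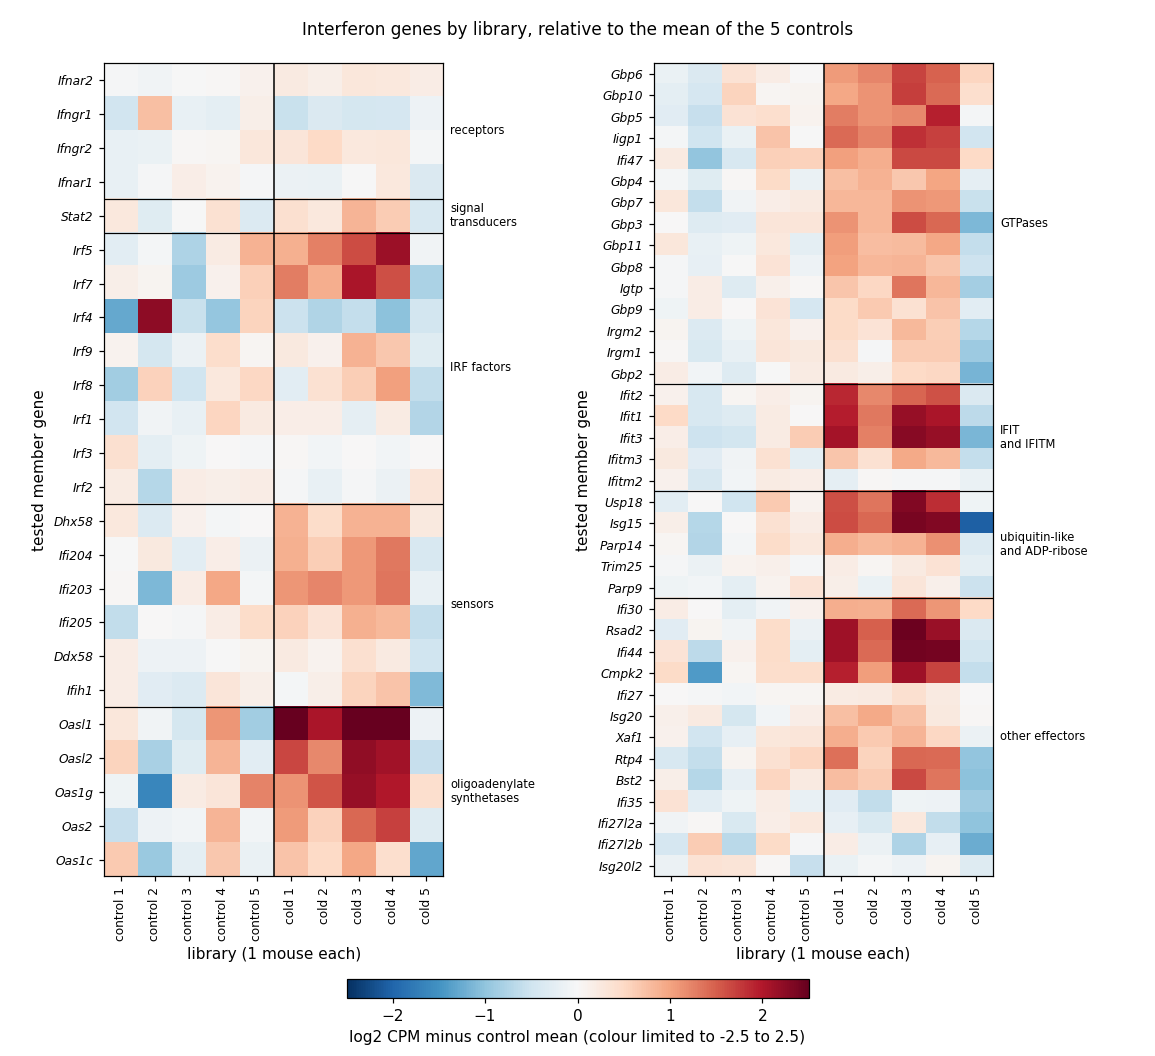
Log2 CPM of 62 tested members (rows, grouped by role) in each library (columns), as the difference from the mean of the 5 controls; red is higher, blue lower. Cold replicates 1 to 4 are red over most targets, with medians over the members of 0.57 to 0.87, and cold replicate 5 is mostly pale or blue, with a median of -0.40.

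The median over the 63 members of the log2 difference from the control mean was 0.76, 0.57, 0.87 and 0.82 in cold replicates 1 to 4 and -0.40 in cold replicate 5. In control replicates 1 to 5 it was 0.03, -0.26, -0.11, 0.26 and 0.08. Over all genes tested it was between -0.01 and 0.01 in every library, as the scaling centres each library. In cold replicates 1 to 4 between 39 and 51 of the 63 members lay above all 5 controls, where 21.2% to 23.2% of all genes did. In cold replicate 5 this was so for 4 members, and 27 lay below all 5 controls, where 21.4% of all genes lay above and 23.2% below. Cold replicate 5 was the lowest cold library for 57 members, and the lowest for 29.4% of all genes tested. It was the lowest of all 10 libraries for 27 members, and for 12.5% of all genes.

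Without cold replicate 5, 40 of the same 63 members rose and 0 fell, with a median log2 fold change of 0.78. Over all genes tested in that fit, 11.5% rose and 9.91% fell. The 40 count Oasl1, Irf5 and Oas1g, which passed the filter mainly through the cold libraries, so their calls are no support. In that fit 37 of the 63 members had cold libraries that all lay above all controls. With all 10 libraries this was so for 3 members, Ifnar2, Gbp6 and Ifi30, where 7.39% of all genes tested were separated in this direction and 6.57% in the other. The filter asked for fewer libraries in the smaller fit and let in 4 further members, Mx1, Mx2, Zbp1 and Oas1a, which makes 44 of 67 higher and 41 separated, against 11.5% and 11.4% of all genes; 9.61% of all genes were separated downwards. These 4 passed the filter only through the cold libraries, so their calls are no support.

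A library that takes no part in a fit can be compared with that fit's calls. Of the 40 members among the same 63 that rose without cold replicate 5, 3 had cold replicate 5 above all controls, 31 had it below the control mean and 14 had it below every control. For all 1310 genes that rose in the same fit, cold replicate 5 was above all controls for 61.2% and below the control mean for 21.1%. With each other cold library left out in turn, 10 to 15 members were called higher, and the left-out library lay above all controls for each of them. For all genes called higher in those fits, the left-out library lay above all controls for 90.1% to 95.7%.

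**Figure D2:**
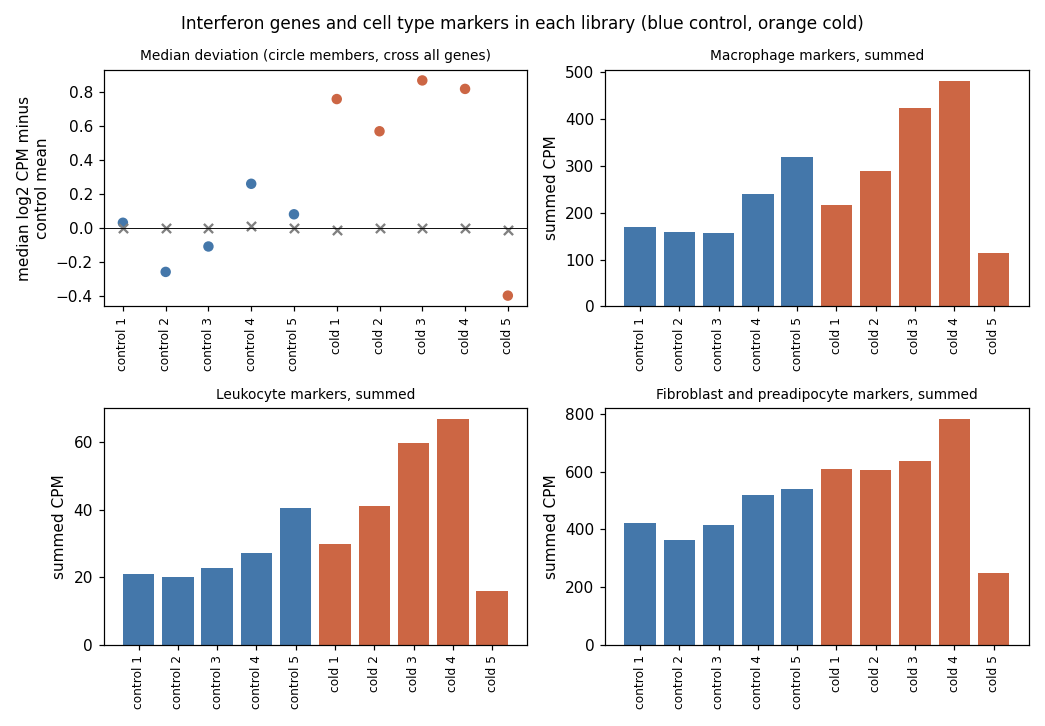
By library, the median log2 difference from the control mean over the 63 tested members (circles) and all genes tested (crosses), and the summed CPM of macrophage, leukocyte and fibroblast markers (bars). Cold replicate 5 is the lowest library in all 4 panels, with -0.40 for the members and 114, 15.9 and 248 CPM for the marker sums.

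Summed markers of macrophages, leukocytes and fibroblasts were lowest in cold replicate 5, as the member median was. Sums of endothelium, pericytes and brown adipocytes were not. Single markers could differ from their sum: the macrophage marker Cd163 was at 5.8 CPM in cold replicate 5 and at 2.33 to 4.81 CPM in the other cold libraries. Abundant genes weigh most in a sum. Lyz2 was the largest part of the macrophage sum in every library, and Col3a1 and Dcn made up most of the fibroblast sum. The 11 macrophage markers summed to 156 to 318 CPM in the controls, 216 to 481 CPM in cold replicates 1 to 4 and 114 CPM in cold replicate 5; 1 of the 11 rose (Cd68) and 1 fell (C1qa), and without cold replicate 5 4 rose and 1 fell. The 4 general leukocyte markers summed to 20 to 40.5 CPM in the controls, 29.9 to 66.8 CPM in cold replicates 1 to 4 and 15.9 CPM in cold replicate 5, with 0 of 4 called by edgeR (unadjusted p under 0.05 for 2) and 2 of 4 without cold replicate 5. Markers of fibroblasts and preadipocytes summed to 362 to 541, 605 to 783 and 248 CPM in the same order, with 1 of 7 called higher, and 3 of 7 without cold replicate 5. Over all genes tested 10.2% rose, and 11.5% without cold replicate 5. Dendritic cell markers were rare, at 2.49 to 3.92, 3.78 to 9.83 and 0.748 CPM, and 0 of the 6 could be tested, as was the case for the 10 T and NK cell and 5 B cell markers. The T and NK cell and the B cell sums were also lowest in cold replicate 5, at 1.31 and 0.561 CPM. The neutrophil sum was not, at 1.12 CPM there against 0.785 CPM in control replicate 2, and 0 of its 4 markers could be tested. No marker of these lists had 0 counts in all libraries. Endothelial markers summed to 691 to 1010 CPM in the controls, 836 to 1010 CPM in cold replicates 1 to 4 and 851 CPM in cold replicate 5. Those of pericytes and smooth muscle summed to 516 to 578, 449 to 651 and 470 CPM in the same order. Brown adipocyte markers summed to 26300 to 29600 CPM in the controls, 36200 to 41400 CPM in cold replicates 1 to 4 and 38200 CPM in cold replicate 5. Ucp1 and Fabp4 made up most of this sum. Of the 8 markers 2 rose and 1 fell. The part of these cells in the result was not tested, and in whole tissue fewer cells of a type cannot be told apart from less RNA per cell. The highest member median was in cold replicate 3 and the highest macrophage sum in cold replicate 4. In cold replicate 1 the macrophage sum was 216 CPM, against 239 and 318 CPM in control replicates 4 and 5, and the member median was 0.76. Cd68 in that library was at 12.2 CPM, above every control (3.14 to 6.6 CPM). How the marker values relate to the members was not tested.

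Of the receptors, the type I subunit Ifnar2 rose slightly. Ifnar2 (chr16:91373028-91405832, mm9), the chain that carries most of the signalling part of the receptor, was at 117.4, 113.2, 119.9, 122.5 and 130.9 CPM in control replicates 1 to 5 and at 141.2, 133.1, 147.4, 144.4 and 136.9 CPM in cold replicates 1 to 5. All cold libraries, cold replicate 5 included, lay above all controls, a rise of 0.22 (SE 0.07, adjusted p = 0.041). In the leave-one-out tests, which each drop 1 library, Ifnar2 passed 2 of 10 times (largest adjusted p 0.0998), while the log2 fold change stayed between 0.19 and 0.25. Its partner Ifnar1 was at 48, 53.4, 61.8, 57.9 and 54.1 CPM in controls against 49.8, 49.1, 54.3, 65.8 and 42.5 CPM in cold libraries, which overlap, at -0.07 (SE 0.12, adjusted p = 0.697). Ifngr1, the ligand-binding chain of the interferon gamma receptor, was at 76.7, 178.3, 94, 89.9 and 117.8 CPM in controls against 72.1, 82.5, 78.1, 79 and 97.4 CPM in the cold. Control replicate 2 was its highest library. Its log2 fold change was -0.45 (SE 0.19, adjusted p = 0.119), or -0.21 leaving control replicate 2 out. The accessory chain Ifngr2 was at 0.27 (SE 0.13, adjusted p = 0.168). Per length, Ifngr1 and Ifnar2 had the highest control means of the receptors, at 53 and 39.7 CPM per kilobase of gene model (RPKM), against 8.41 for Ifngr2 and 7.85 for Ifnar1.

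The signal transducer Stat2, itself a known interferon target, did not pass the test with all 10 libraries. Stat2 ranged from 15.5 to 25.9 CPM in controls and from 15 to 36.1 CPM in cold libraries, at 0.39 (SE 0.22, adjusted p = 0.223). Without cold replicate 5 Stat2 was called higher, by 0.53 (adjusted p = 0.0473).

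Among the 8 tested IRFs, Irf7 and Irf5 rose and the others did not pass. Irf7 (chr7:148449082-148452323), the factor that amplifies type I interferon production and is itself induced by it, was at 10.4, 9.81, 4.82, 10.1 and 14.4 CPM in controls. Its cold libraries were at 23.2, 18, 39.8, 29.3 and 5.24 CPM. The 4 higher cold libraries lay above every control and cold replicate 5 near the lowest control, which gave 1.22 (SE 0.4, adjusted p = 0.0499). The call for Irf7 sat at the threshold: of the 10 tests that leave out 1 library it passed only without cold replicate 5 (1.46, adjusted p = 0.00251) and reached 0.139 in the others, and it was lost with limma-voom (0.167) and DESeq2 (0.0581). Irf5, a factor of macrophages and other immune cells, was low, at 1.13, 1.37, 0.689, 1.68 and 2.89 CPM in controls against 2.92, 3.88, 5.13, 7.45 and 1.31 CPM in the cold. It rose by 1.4 (SE 0.45, adjusted p = 0.0431), but passed only 3 of the 10 leave-one-out tests (largest adjusted p 0.116) and missed with limma-voom (0.0864). Irf5 passed the filter mainly through the cold libraries, with 5, 7, 3, 10 and 14 counts in control replicates 1 to 5, so its call is no support.

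The other IRFs overlapped between the groups. Irf3, the factor that sensors activate to switch on interferon genes, was the most abundant IRF per length, at mean levels of 24.4 RPKM without and 23.8 RPKM with cold. It ranged from 41.4 to 64.5 CPM in controls and from 46.5 to 50.3 CPM in cold libraries, at -0.03 (SE 0.11, adjusted p = 0.862). Irf9, the partner of Stat2, ranged from 13.5 to 25.1 and from 15 to 33.8 CPM, at 0.36 (SE 0.22, adjusted p = 0.27). Irf1, which interferon gamma induces, was at -0.09 (SE 0.22, adjusted p = 0.795), its antagonist Irf2 at -0.05 (SE 0.17, adjusted p = 0.872), and Irf8, a factor of myeloid cells, at 0.26 (SE 0.38, adjusted p = 0.663). These last 4 lie outside the rule for named genes and were added so that each tested IRF has a value.

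Irf4 varied widely among the controls and did not pass the test. This factor of lymphocytes and macrophages also regulates thermogenic genes in brown adipocytes. It was at 14, 164.2, 23.4, 17.3 and 51 CPM in controls against 23.5, 20.4, 22.8, 16.8 and 24.9 CPM in the cold. Control replicate 2 stood far above the rest, and the other controls, at 14 to 51 CPM, spanned the range of the cold libraries. Its log2 fold change was -1.32 (SE 0.56, adjusted p = 0.116), or -0.29 leaving control replicate 2 out. Dio2, the deiodinase that activates thyroid hormone, was also highest in that library, at 1500 CPM against 166 to 284 CPM in the other controls.

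**Figure D3:**
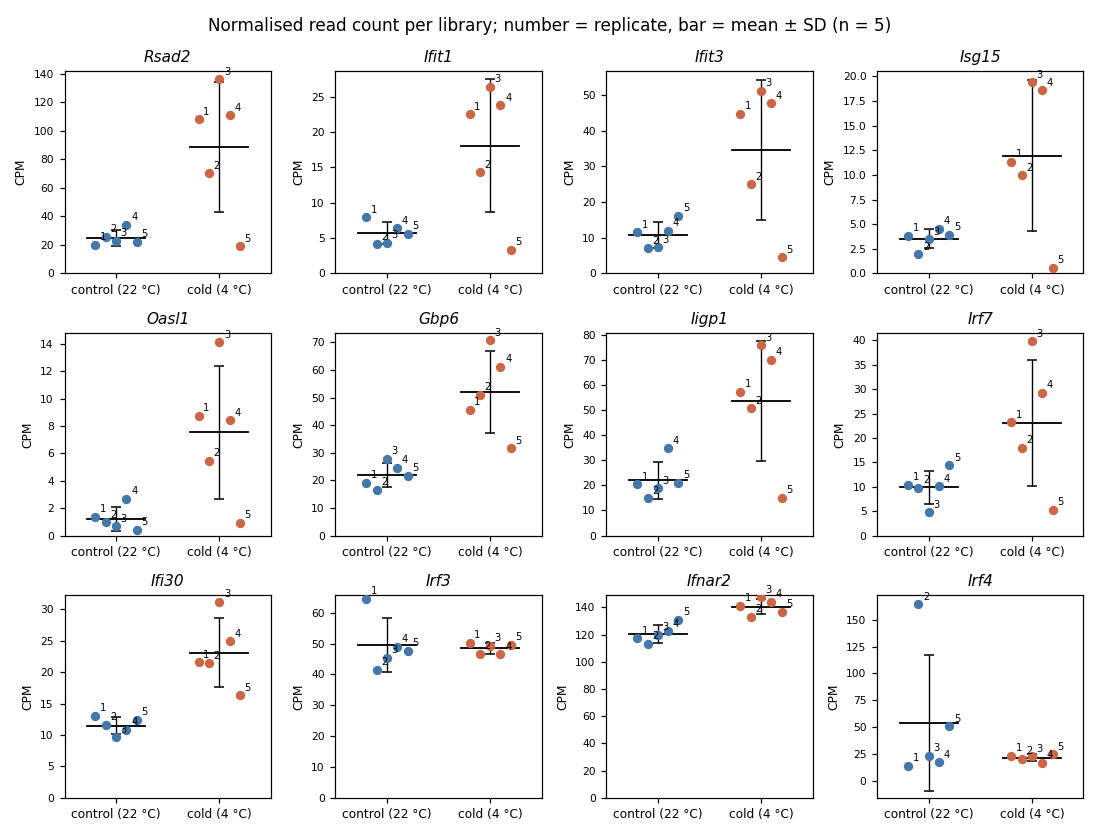
CPM of 12 members in each library, with the mean and SD of the 5 libraries per group (axes of each panel start at 0, or lower where the SD reaches below it). Cold replicate 5 (number 5) lies beside the lowest control for Iigp1 (15 CPM). It lies under all controls for Rsad2 (18.9 CPM) and Isg15 (0.561 CPM), and above them for Gbp6, Ifi30 and Ifnar2.

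Of the 6 tested sensors of nucleic acids, 1 rose. Without cold replicate 5, 3 of these 6 rose, Ifi204 being the third. Dhx58 (LGP2), the RNA helicase that tunes the other RIG-I-like sensors, was at 14.5, 9.41, 12.9, 11.6 and 12 CPM in controls against 22.2, 16.5, 22.1, 22.2 and 14.2 CPM in the cold. Cold replicate 5 lay just under the highest control and the other cold libraries lay above all controls, a rise of 0.69 (SE 0.16, adjusted p = 0.00966), kept in all 10 leave-one-out tests. The related sensors Ddx58 (RIG-I) and Ifih1 (MDA5) were at 0.12 (SE 0.15, adjusted p = 0.611) and 0.17 (SE 0.27, adjusted p = 0.708), the latter and Ifi204 being named outside the rule. Ifi203, of the DNA-binding family around Ifi204, ranged from 5.1 to 23.1 CPM in controls and from 10.1 to 30 CPM in cold libraries, at 0.86 (SE 0.33, adjusted p = 0.0871), and it rose by 1.05 (adjusted p = 0.0203) without cold replicate 5. Ifi202b had 0 counts in every library, which allows up to 3 counts in each.

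Of the oligoadenylate synthetase family, whose active members make a messenger that switches on RNA degradation, 5 of 12 genes were tested and 2 rose. Oasl1 (chr5:115373249-115387920), a family member without that enzyme activity, was at 1.36, 0.981, 0.689, 2.69 and 0.413 CPM in controls against 8.76, 5.44, 14.1, 8.4 and 0.935 CPM in the cold. It had the largest log2 fold change of the tested members, 2.56 (SE 0.59, adjusted p = 0.00944), and the call held in all 10 leave-one-out tests, although not with limma-voom (0.0726). Oasl1 passed the filter mainly through the cold libraries, with 6, 5, 3, 16 and 2 counts in control replicates 1 to 5, so its call is no support. Its neighbour Oasl2 was at 6.11, 2.16, 3.22, 7.58 and 3.3 CPM in controls against 13.7, 9.79, 20.1, 18.6 and 2.62 CPM in the cold. Oasl2 rose by 1.53 (SE 0.45, adjusted p = 0.0324), but passed only 4 of the 10 leave-one-out tests (largest adjusted p 0.0887) and missed with limma-voom (0.122). Oas2 and Oas1g were at 1.05 (SE 0.4, adjusted p = 0.0833) and 1.62 (SE 0.54, adjusted p = 0.0533). Without cold replicate 5 both rose, Oas2 by 1.25 (adjusted p = 0.0185) and Oas1g by 1.81 (adjusted p = 0.0229). Oas1g too passed the filter mainly through the cold libraries, with 3, 0, 4, 6 and 11 counts in control replicates 1 to 5, so its call is no support. The 8 genes named Oas1 are close copies side by side on chromosome 5, so their reads could be split among them.

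The GTPases were the largest class tested, and 6 of the 15 tested rose, as did 13 of the same 15 without cold replicate 5. Over all genes tested 10.2% rose, and 11.5% without cold replicate 5. Gbp6 (chr5:105699721-105722718), a guanylate-binding protein, which coats microbe-containing vacuoles, was at 19.2, 16.7, 27.8, 24.6 and 21.7 CPM in controls against 45.5, 51, 70.7, 61.2 and 31.6 CPM in the cold. All cold libraries lay above all controls, cold replicate 5 by the least, and Gbp6 rose 2.37-fold, from 22 ± 4.37 CPM to 52 ± 14.9 CPM (SD, 5 libraries each), 1.24 (SE 0.2, adjusted p = 0.00106) on the log2 scale. The neighbouring Gbp10 was at 12, 10.6, 21.1, 14.7 and 14.9 CPM in controls against 28.2, 31.5, 47.7, 38.4 and 19.1 CPM in cold libraries, a rise of 1.18 (SE 0.24, adjusted p = 0.00417). Gbp4, in the same cluster, was at 18.1, 15.3, 19.3, 26.4 and 16.7 CPM and 31.9, 34.5, 30.2, 37.4 and 16.1 CPM, a rise of 0.65 (SE 0.21, adjusted p = 0.0466) that passed 2 of the 10 leave-one-out tests (largest adjusted p 0.115) and missed with limma-voom (0.0737). Gbp4, Gbp6 and Gbp10 lie with Gbp8, Gbp9 and Gbp11 in 1 cluster of similar sequence on chromosome 5, so the split of reads among them is uncertain; all 6 had log2 fold changes above 0, from 0.41 (Gbp9) to 1.24, and all 6 rose without cold replicate 5.

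The other cluster of guanylate-binding proteins, on chromosome 3, was less even. Gbp5 (chr3:142159898-142185308), which promotes inflammasome activity, was at 2.94, 2.35, 4.82, 5.05 and 3.92 CPM in controls against 9.45, 8.39, 8.98, 15.2 and 3.55 CPM in cold libraries, a rise of 1.25 (SE 0.33, adjusted p = 0.0192); its adjusted p was 0.0533 without cold replicate 4 and 0.052 with limma-voom. Gbp3, its neighbour, ranged from 17.3 to 26.8 CPM in controls. It stood at 39 to 67.7 CPM in cold replicates 1 to 4 and at 9.73 CPM in cold replicate 5. Its log2 fold change was 1.02 (SE 0.36, adjusted p = 0.0644), and it rose by 1.27 (adjusted p = 0.000518) without cold replicate 5. Gbp2, the most abundant per length of the family in controls (13.8 RPKM), ranged from 26.7 to 38.6 CPM in controls and from 14.8 to 48 CPM in cold libraries, at 0.15 (SE 0.24, adjusted p = 0.702).

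Of the 5 immunity-related GTPases, which act on vacuoles of intracellular parasites, 2 rose, Iigp1 and Ifi47. Iigp1 was at 20.4, 14.9, 18.8, 34.7 and 21.1 CPM in controls against 57.2, 50.6, 75.7, 69.9 and 15 CPM in the cold. The other 4 cold libraries lay above all controls and cold replicate 5 beside the lowest control, a rise of 1.28 (SE 0.34, adjusted p = 0.0197). Iigp1 passed 8 of the 10 leave-one-out tests (largest adjusted p 0.0566) and missed with limma-voom (0.0697). Ifi47 was at 4.07, 1.57, 2.53, 5.39 and 5.37 CPM in controls against 7.39, 6.84, 11.7, 11.6 and 5.05 CPM in cold libraries, a rise of 1.16 (SE 0.33, adjusted p = 0.0255), which passed 7 of the 10 leave-one-out tests (largest adjusted p 0.0726). Its span overlaps that of Olfr56 on the same strand, whose mean was 0.075 ± 0.104 CPM without and 0.243 ± 0.354 CPM with cold (SD, 5 libraries each). The regulatory relatives Irgm1 and Irgm2 were at 0.23 (SE 0.25, adjusted p = 0.546) and 0.38 (SE 0.23, adjusted p = 0.252), and are named after their values were seen. Without cold replicate 5 Irgm2 rose by 0.56 (adjusted p = 0.0133), and Irgm1 was at 0.41 (adjusted p = 0.105). Igtp and Gbp7, also outside the rule, were at 0.66 (SE 0.29, adjusted p = 0.123) and 0.75 (SE 0.26, adjusted p = 0.0627), and both rose without cold replicate 5, by 0.87 and 0.95.

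The 3 IFIT genes, which lie close together on chromosome 19 and encode proteins that bind foreign RNA, all rose, and the IFITM genes did not pass the test. Ifit1 (chr19:34715379-34724499) was at 7.92, 4.12, 4.37, 6.4 and 5.57 CPM in controls against 22.5, 14.3, 26.4, 23.8 and 3.37 CPM in cold libraries, a rise of 1.68 (SE 0.41, adjusted p = 0.0128). Ifit2 was at 11.3, 7.85, 10.8, 11.8 and 10.9 CPM and 39.7, 24.4, 29.2, 32.3 and 8.04 CPM, a rise of 1.35 (SE 0.31, adjusted p = 0.00981). Ifit3 was at 11.5, 7.06, 7.35, 12 and 16.1 CPM and 44.7, 25, 51.2, 47.7 and 4.49 CPM, a rise of 1.68 (SE 0.47, adjusted p = 0.0231). In all 3 genes cold replicates 1 to 4 lay above every control, cold replicate 2 lowest among them, and cold replicate 5 was under or beside the lowest controls. The calls for Ifit1 and Ifit2 held in all 10 leave-one-out tests, and that for Ifit3 in 6 (largest adjusted p 0.0635). With limma-voom the adjusted p was 0.102 for Ifit1, 0.0532 for Ifit2 and 0.164 for Ifit3.

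IFITM proteins block viruses at membranes and are made without interferon in many cells. Ifitm3 was at 47.7, 33, 37.9, 52.6 and 34.3 CPM in controls against 65.1, 53, 78.5, 71.5 and 26.7 CPM in the cold. The other 4 cold libraries lay above all controls and cold replicate 5 below them, which gave 0.52 (SE 0.24, adjusted p = 0.139), and a rise of 0.70 (adjusted p = 0.00731) without cold replicate 5. Ifitm2, next to it, overlapped between the groups, at -0.1 (SE 0.12, adjusted p = 0.594).

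Isg15 and Usp18, the ubiquitin-like modifier of the response and the protease that removes it, rose in the same pattern. Isg15 (chr4:155573533-155574927) was at 3.85, 1.96, 3.45, 4.55 and 3.92 CPM in controls against 11.3, 9.94, 19.4, 18.6 and 0.561 CPM in the cold. Cold replicate 5 was its lowest library, at the level of 3 counts, and the others lay above all controls, a rise of 1.76 (SE 0.54, adjusted p = 0.0382). Leaving out 1 library at a time, Isg15 passed only without cold replicate 5 (2.05, adjusted p = 0.000277) and reached 0.102 otherwise; limma-voom gave 0.369. Usp18, which also damps signalling at Ifnar2, was at 3.85, 4.71, 3.22, 7.58 and 4.95 CPM in controls against 14.9, 12.3, 24.8, 17.6 and 4.3 CPM in the cold. Usp18 rose by 1.59 (SE 0.37, adjusted p = 0.0106), a call kept in all 10 leave-one-out tests and not with limma-voom (0.0537). Parp14, an ADP-ribosyltransferase and outside the rule for named genes, was at 0.72 (SE 0.25, adjusted p = 0.0646) and rose by 0.89 (adjusted p = 0.00516) without cold replicate 5. Trim25, which activates RIG-I, was at 0.12 (SE 0.11, adjusted p = 0.463) and Parp9, a partner of Dtx3l in ADP-ribosylation, at -0.01 (SE 0.16, adjusted p = 0.966). Parp9 shares part of its span with Dtx3l on the opposite strand, and no strand setting of the counting is given.

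Rsad2 and Cmpk2, which lie next to each other on chromosome 12, both rose. Rsad2 (chr12:27127608-27141317), or viperin, makes a nucleotide that ends viral RNA chains. It was at 20.1, 25.7, 23, 33.9 and 22.1 CPM in controls against 108, 70.1, 136.1, 110.7 and 18.9 CPM in the cold. The groups were widely separated but for 1 mouse, with cold replicates 1 to 4 at 70.1 CPM or more and every control at 33.9 CPM or less, while cold replicate 5 was the lowest of all. Rsad2 rose 3.55-fold, from 24.9 ± 5.37 CPM to 88.8 ± 45.6 CPM (SD, 5 libraries each), 1.83 (SE 0.38, adjusted p = 0.00537) on the log2 scale, and by 2.08 (adjusted p = 2.87e-05) without cold replicate 5. Cmpk2, a mitochondrial nucleotide kinase, was at 19.2, 4.9, 14.2, 18.9 and 18.8 CPM in controls against 53.8, 28.6, 60.6, 45 and 8.98 CPM in the cold. Cmpk2 rose by 1.38 (SE 0.43, adjusted p = 0.0395), but passed only 2 of the 10 leave-one-out tests (largest adjusted p 0.104) and missed with limma-voom (0.115).

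Of the other effectors, Ifi30 was higher in every cold library. Ifi30 (chr8:73286672-73290562), a lysosomal thiol reductase that prepares antigens for presentation, was at 13.1, 11.6, 9.65, 10.8 and 12.4 CPM in controls against 21.6, 21.4, 31.2, 24.9 and 16.3 CPM in the cold. All cold libraries lay above all controls, cold replicate 5 included, a rise of 1.01 (SE 0.17, adjusted p = 0.00125) that held in all 10 leave-one-out tests. Ifi44 was at 3.85, 1.77, 3.22, 4.21 and 2.48 CPM in controls against 14.1, 8.54, 17.4, 17.3 and 2.06 CPM in cold libraries, with cold replicate 5 among the controls and the others above them, a rise of 1.93 (SE 0.45, adjusted p = 0.0102). With limma-voom the adjusted p of Ifi44 was 0.0901. Bst2 (tetherin), which holds budding virus at the cell surface, ranged from 11.8 to 28.3 CPM in controls. It was at 30.4 to 61.9 CPM in cold replicates 1 to 4 and at 9.35 CPM in cold replicate 5, at 0.87 (SE 0.38, adjusted p = 0.121); without cold replicate 5 it rose by 1.11 (adjusted p = 0.00818).

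Ifi27, the member with the highest CPM, did not pass the test. This small hydrophobic protein of the ISG12 family was at 1505, 1472, 1425, 1538 and 1543 CPM in controls against 1721, 1747, 1973, 1751 and 1509 CPM in cold libraries, which is 1580 RPKM on average in controls. Cold replicates 1 to 4 lay above all controls and cold replicate 5 among them, at 0.22 (SE 0.08, adjusted p = 0.0717); DESeq2 gave an adjusted p of 0.0251. Without cold replicate 5 Ifi27 rose by 0.26 (adjusted p = 0.0222). A relative, Ifi27l2a, was at 73.7, 80.2, 59.7, 88.3 and 93.7 CPM and 67.8, 59.7, 93.8, 51.2 and 38.7 CPM, at -0.34 (SE 0.2, adjusted p = 0.241). The spans of these genes overlap on opposite strands, so reads of the shared part could not be told apart. Ifi35 ranged from 14.9 to 23.3 CPM in controls and from 9.54 to 16.7 CPM in cold libraries, at -0.39 (SE 0.18, adjusted p = 0.137). The remaining tested effectors, Isg20, Xaf1, Rtp4, Ifi27l2b and Isg20l2, had log2 fold changes from -0.51 (Ifi27l2b) to 0.96 (Rtp4), and the first 3 of them rose without cold replicate 5.

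**Figure D4:**
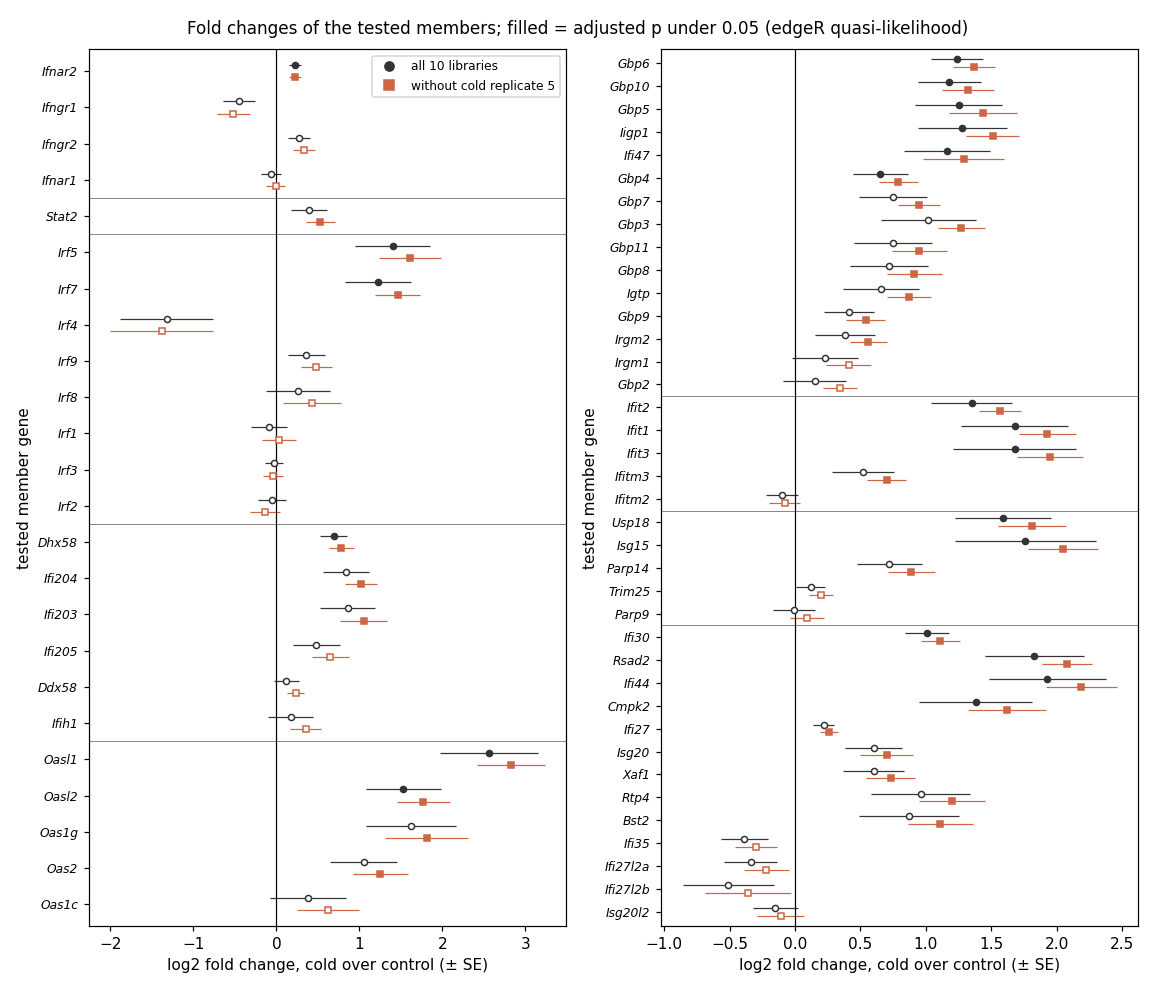
Log2 fold change of cold over control with its SE for 62 tested members, from all 10 libraries (circles) and without cold replicate 5 (squares); filled symbols have an adjusted p under 0.05. Oasl1, whose call is no support, is farthest right (2.56 and 2.82). Filled are 21 circles and 40 squares, and all filled symbols lie to the right of 0.

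The 18 members not tested were silent or rare. Ifi202b, Oas1f and Ifi44l had 0 counts in all libraries, and Oas1d, Oas1e, Oas1h and Ifitm7 had 2 to 4 counts in all 10 together. The other 11 had up to 74 counts in a library. Among them Mx1, an antiviral dynamin-like GTPase whose gene is known to be defective in common laboratory strains, had 1, 5, 0, 4 and 3 counts in control replicates 1 to 5 and 12, 17, 31, 29 and 0 in cold replicates 1 to 5. Mx2 had 3, 4, 2, 7 and 6 counts in controls and 25, 13, 21, 29 and 1 in cold libraries. Zbp1, a sensor of Z-form nucleic acids, had 5, 4, 4, 9 and 8 counts in controls and 23, 14, 74, 30 and 4 in cold libraries. Cold replicate 5 was the lowest cold library for each of these 3 genes.

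Genes of the pathway outside the symbol rule gave a mixed picture. Interferon genes themselves gave few or no counts: Ifna1, Ifna2, Ifna4, Ifnl2 and Ifnl3 had 0 counts in all libraries, each of which allows up to 3 counts (0.428 to 0.689 CPM). Ifnb1 had 1 count in cold replicates 2 and 4 and 0 elsewhere, and Ifng had 2, 1, 0, 0 and 0 counts in controls and 1, 0, 0, 0 and 0 in cold libraries. The counts in these lists are to be read against the 10.2% of all genes that rose and the 9.14% that fell. Of 10 tested genes of ligands, kinases and regulators, 1 rose and 0 fell: Ptpn11, the phosphatase SHP2, by 0.51 (SE 0.12, adjusted p = 0.0113). Of 14 tested sensing adaptors and kinases, 1 rose and 1 fell. Mavs, the mitochondrial adaptor of RIG-I-like sensors, rose by 0.53 (SE 0.15, adjusted p = 0.0293), with 224.8 CPM in cold replicate 5, its highest library, and was at 0.48 (adjusted p = 0.0532) without that library. Trex1, which degrades stray DNA, fell by 0.54 (SE 0.13, adjusted p = 0.0123).

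Of 43 other interferon-stimulated genes tested, 7 rose and 2 fell, and the median log2 fold change with all libraries was 0.19. Without cold replicate 5, 16 rose and 2 fell, the 16 counting Cxcl10, a chemokine tested in that fit alone. Cxcl10 passed the filter only through the cold libraries, with 7, 4, 2, 4 and 6 counts in control replicates 1 to 5. Epsti1, also among the 16, passed it mainly through the cold libraries, with 3, 4, 5, 9 and 10 counts in the controls. The calls for Cxcl10 and Epsti1 are therefore no support. Lgals9, a galectin, rose by 1.08 (SE 0.17, adjusted p = 0.0011), Ly6e, which restricts entry of some viruses, by 0.68 (SE 0.17, adjusted p = 0.0143), and Slfn8, of the Schlafen family, by 1.77 (SE 0.46, adjusted p = 0.0162). Ly6e was at 78.7 CPM in cold replicate 5, against 72.6 to 102.4 CPM in controls and 127.2 to 169.3 CPM in the other cold libraries. The 2 that fell, named after their values were seen, were Tap2, a subunit of the antigen peptide transporter (-0.47, SE 0.12, adjusted p = 0.0185), and Cd274, the checkpoint ligand PD-L1 (-0.89, SE 0.28, adjusted p = 0.0377). Cd274 was at 18.5 CPM in cold replicate 5 and at 41.5 to 68.5 CPM in the other cold libraries.

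In the authors' deposited table, 66 of the members were listed, of which 32 were higher and 1 lower at an FDR under 0.05, where 10.7% and 9.07% of all 11241 genes in that table were. The member lower in the authors' deposited table was Irf4 (-1.32, FDR 0.0335). For Rsad2 the authors' deposited table gives 1.82 (FDR 1.95e-06). Ifnar2, which rose here, is not called there, at 0.22 (FDR 0.15). The authors' deposited table also lists 4 members not tested here: Mx1 at 2.37, Zbp1 at 1.86, Mx2 at 1.65 and Oas1a at 1.59, each with an FDR under 0.05.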

How the data were processed

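Poly-A RNA of interscapular brown fat from 5 control and 5 cold-exposed mice was sequenced, with 4 µg of total RNA going into each library according to the labels' protocols. The treatment tag of the cold samples also says room temperature, beside 4 °C; the titles place them in the cold group. The deposited counts are raw reads per RefSeq gene model, per the file headers, with the bases counted per model. STAR, mm9 and edgeR are named in the submitters' processing notes; the read counter, its strand setting and versions are not named there. The authors' deposited table holds log2 fold changes and p-values of their own comparison. All 10 count columns are marked WT, and control columns are those with no mention of cold, matched by replicate number.

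Counts were tested with edgeR 4.0.16 (R 4.3.3; TMM, filterByExpr, quasi-likelihood F test, two-sided, Benjamini-Hochberg over all 11229 genes, threshold 0.05), with no covariate. SE is the log2 fold change divided by the root of F. Log2 CPM used a prior count of 2. Alternatives were other scalings, filters, limma-voom 3.58.1, DESeq2 1.42.0, a replicate block and fits without 1 library. Within-group pairs differed by more than sampling noise (chi-square per degree of freedom 3.2 to 36.1). Table coordinates are mm9, with starts raised by 1.

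The members, the lists and the alternatives were chosen with earlier results of these data known. Per-library values are given for members that passed the test, did not overlap or averaged at least 50 CPM, and up to 2 more per role are named. Members that are counted but not named in the text are not reported singly here.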

Additional observations from a re-analysis of the deposited data

Results flagged for a closer look

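Among 90 sets of 5 libraries (45 named members in 2 groups), 5 held a library whose gap to its neighbour was above 0.71 of the range, Dixon's limit for 5 values; chance flags about 1 in 20 such sets. Control replicate 2 was set apart 3 times. It was high for Irf4, at 164.2 CPM against 51 CPM in the next control. It was low for Irf2, at 9.22 CPM against 16.8 CPM, and for Ifit2, at 7.85 CPM against 10.8 CPM. Cold replicate 5 was low for Ifi203, at 10.1 CPM against 25.1 CPM in the next cold library. Control replicate 4 was high for Oas2, at 4.21 CPM against 2.07 CPM. For most targets the other 4 cold libraries were themselves spread out, so that the gap of cold replicate 5 stayed under this limit.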

How the results depend on the processing

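All 21 members that rose kept their direction in every alternative fit. Of these 21, 18 to 21 also passed under the 3 other scalings, the reduced library sizes, both filters and DESeq2. With limma-voom 7 members rose. Fits that each left out 1 library called 10 members higher (without cold replicate 4) to 44 (without cold replicate 5), with 11 without cold replicate 3 and 13 without control replicate 3, and 0 to 1 lower; the 1 was without control replicate 1. In these fits 4 to 20 other pathway genes rose (4 without cold replicate 3 or 4, 5 without cold replicate 1 or 2, 20 without cold replicate 5) and 1 to 4 fell (1 without cold replicate 2). The 20 count Cxcl10 and Epsti1, whose calls are no support. Members whose groups do not overlap numbered 3 to 41, with 41 without cold replicate 5. The 44 and 41 without cold replicate 5 are of 67 members. Of the 63 tested with all 10 libraries, 40 rose and 37 did not overlap there. Over all genes tested, 823 (without cold replicate 3) to 1310 (without cold replicate 5) rose in these fits, against 1142 with all libraries. Those that fell numbered 732 (without cold replicate 4) to 1157 (without control replicate 2), against 1026. Without both control replicate 2 and cold replicate 5, 42 members rose and 42 did not overlap, and 19 other pathway genes rose and 5 fell. The median over tested members stayed between 0.55 and 0.87.

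Members near 0 changed sign without being called. Without scaling factors Irf3 was at 0 and Parp9 at 0.03. In fits without 1 library, Irf3 ranged from -0.09 to 0.07, Parp9 from -0.10 to 0.09 and Irf1 from -0.20 to 0.07; Parp9 was at 0.07 without control replicate 2 and cold replicate 5.

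Replicate numbers are shared by the groups in the labels, but same-numbered libraries did not deviate together (correlations -0.25 to 0.19; 2 of 5 matched their own number best). With the number as a replicate block 16 members rose and 0 fell. The cause of these dependences was not tested. Counts of the rarest members, such as 3 counts of Isg15 in cold replicate 5, limit the precision of their fold changes.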
